A study of Mus musculus with 8 samples.

Results

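Voltage-gated sodium channels were measured at the transcript level through 8 subunit genes, Scn1a, Scn2a, Scn3a, Scn8a, Scn9a, Scn10a, Scn2b and Scn3b, chosen by name as members of this family rather than by any measured value. All 8 were found among the 38355 genes counted, and all 8 were among the 16068 genes with enough reads to be tested. The study set 4 Prdm12 KO libraries, from embryos without the zinc-finger transcription factor Prdm12, beside 4 wild-type (WT) libraries, all from C57Bl6 mouse embryos at stage E11.5; the series text speaks of triplicates, and all 8 libraries listed were used. Total RNA came from dorsal root ganglia together with spinal cord, which the series text places at thoracic level. The labels give neither the deleted part of Prdm12 nor whether a library is 1 embryo or a pool, so p-values measure the spread between these libraries, which may be technical. By its title, the study asked what Prdm12 controls in somatosensory neurons.

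A voltage-gated sodium channel consists of a large alpha subunit, which forms the pore and carries the inward current of the action potential, and smaller beta subunits, which are cell adhesion proteins that alter gating and surface expression. Scn1a, Scn2a, Scn3a and Scn8a encode alpha subunits used widely by central neurons, and Scn3a is the one best known from the embryonic nervous system. Scn9a encodes the alpha subunit that sets the firing threshold of peripheral sensory and sympathetic neurons. Scn10a encodes the tetrodotoxin-resistant alpha subunit that carries most of the action potential current in adult nociceptors, the neurons of pain. Scn2b and Scn3b encode beta subunits, the first linked to the alpha subunit by a disulphide bond and the second without one.

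The promoters of the sensory-type alpha subunit genes and of Scn2b, the member whose level varied least between libraries, are shown because the results turn on how differently these genes behaved in the same RNA. Each line is the 250 bases before the transcription start from RefSeq (GRCm38.p6, the assembly also called mm10), read 5′ to 3′ on the gene's own strand. Capitals mark E-boxes (CANNTG, read the same on both strands, the site of basic helix-loop-helix factors) and homeodomain cores (TAAT or its reverse complement ATTA); no marked matches overlap in these windows.
Scn10a: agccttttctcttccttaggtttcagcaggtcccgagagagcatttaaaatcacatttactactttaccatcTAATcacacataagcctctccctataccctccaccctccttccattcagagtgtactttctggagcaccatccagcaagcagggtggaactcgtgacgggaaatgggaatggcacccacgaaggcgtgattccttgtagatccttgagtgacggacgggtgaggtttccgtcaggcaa
Scn9a: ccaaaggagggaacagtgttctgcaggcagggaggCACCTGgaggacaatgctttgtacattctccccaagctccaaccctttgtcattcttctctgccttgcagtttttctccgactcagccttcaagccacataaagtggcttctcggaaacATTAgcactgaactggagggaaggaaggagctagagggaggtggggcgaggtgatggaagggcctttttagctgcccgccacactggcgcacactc
Scn2b: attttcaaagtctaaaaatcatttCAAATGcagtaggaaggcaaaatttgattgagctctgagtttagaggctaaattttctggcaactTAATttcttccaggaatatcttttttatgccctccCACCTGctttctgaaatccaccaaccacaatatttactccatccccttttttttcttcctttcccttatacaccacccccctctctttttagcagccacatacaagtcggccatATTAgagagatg

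The Scn10a window (chr9:119719033-119719282, minus strand) held 0 E-boxes and 1 homeodomain core, and the Scn9a window (chr2:66634963-66635212, minus strand) held 1 of each. The Scn2b window (chr9:45117626-45117875, plus strand) held 2 of each. Over 32851 promoter windows of this length, 66.2% held at least 1 E-box and 54.9% at least 1 homeodomain core. These are letter matches and not binding sites. The gene bounds given below come from another annotation, GENCODE M21. By those bounds the Scn10a window lies inside the gene, which reaches 119719322, and the Scn2b window runs past the gene's start at 45117782. RefSeq promoter windows were matched for 6 of the 8 genes.

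The alpha subunit genes lie in clusters. Scn3a (chromosome 2, 65457118 to 65567627, minus strand), Scn2a (65620771 to 65767447, plus strand), Scn1a (66270778 to 66440840, minus strand) and Scn9a (66480080 to 66634962, minus strand) share a stretch of chromosome 2, with 39.2 kb between Scn1a and Scn9a. Scn10a (119608456 to 119719322, minus strand), Scn3b (40269217 to 40291618, plus strand) and Scn2b (45117782 to 45130070, plus strand) are on chromosome 9, and Scn8a (100869858 to 101045938, plus strand) is on chromosome 15. The antisense gene Gm13629 covers 180 bases of Scn9a exons, or 1.41% of their length. It held 0 to 2 reads per KO library and 1 to 4 per WT library, while Scn9a held 462 to 1031 reads per KO library and 1210 to 1693 per WT library. No other annotated exon overlapped an exon of the 8 genes. How reads that match several of these related genes were counted is not given in the sources used here.

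Libraries held 23088908 to 27567399 counts in the KO group and 25490087 to 67782435 in the WT group, the highest being WT replicate 1. Prdm12 was low in all 4 KO libraries (0.961 to 1.55 CPM, counts scaled to library size) against 22.1 to 39.5 CPM in WT (log2 fold change -4.70, SE 0.24, edgeR adjusted p = 0.000124). The labelled tissue was present: Isl1, a factor of sensory and motor neurons, lay between 53.9 and 74.4 CPM in KO and between 64.3 and 97.7 CPM in WT, and Pax6, a neural tube progenitor factor, between 30.6 and 39.7 CPM in KO and between 33.7 and 42.4 CPM in WT. WT replicate 1 stood apart within its group. Summed over 10 general sensory neuron genes, the KO libraries held 349.1 to 389.4 CPM, WT replicate 1 held 379.8 CPM and WT replicates 2 to 4 held 479.4 to 509.8 CPM. Summed over 15 pan-neuronal genes, the KO libraries held 5462 to 6087 CPM, WT replicate 1 held 5665 CPM and WT replicates 2 to 4 held 6454 to 6695 CPM. In 2 other lists WT replicate 1 was unlike the KO libraries too. Over 8 neural tube progenitor genes it held 2877 CPM, against 2458 to 2606 in KO and 2592 to 2744 in WT replicates 2 to 4. Over 9 mesenchyme genes it held 2099.98 CPM, against 2753 to 3074 in KO and 2628 to 2902 in WT replicates 2 to 4. The part that this library's make-up plays in the results below was not tested, and calls that rest on it are given with and without it for the genes named with their tests.

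None of the 8 sodium channel genes passed the threshold when all libraries were used (edgeR quasi-likelihood test, Benjamini-Hochberg adjusted p under 0.05 over all tested genes). Over all tested genes 0.243% were called lower in KO and 0.056% higher. At an unadjusted p under 0.05 the count was 1 of 8, Scn10a, with 3.32% of all tested genes lower and 3.03% higher at that level. No member's KO values lay wholly on one side of its WT values, which 4.14% of all tested genes showed. The log2 fold changes of KO over WT were below 0 for 5 members and above 0 for 3, with a median of -0.02 beside -0.003 over all tested genes. Of all tested genes 51.6% were below 0.

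**Figure D1:**
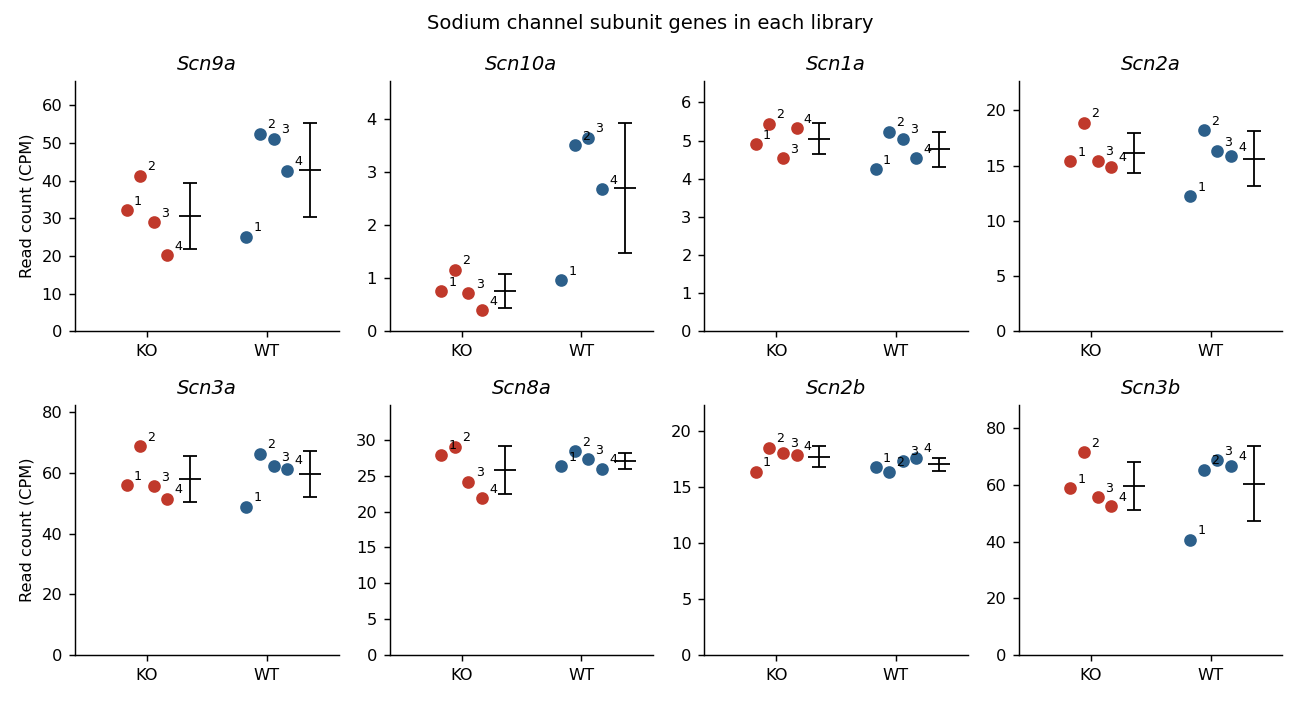
Normalised read count in CPM (vertical axes, each from 0) of the 8 sodium channel subunit genes in 4 KO and 4 WT libraries. Points are libraries with their replicate number, and bars are mean ± SD. Scn10a lay between 0.393 and 1.16 CPM in KO and between 0.965 and 3.64 CPM in WT, while Scn2b lay between 16.3 and 18.5 CPM in KO and between 16.3 and 17.6 CPM in WT.

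Among the sensory-type channels, Scn10a (ENSMUSG00000034533) stood at 0.758, 1.16, 0.712 and 0.393 CPM in KO replicates 1 to 4, against 0.965, 3.50, 3.64 and 2.67 CPM in WT replicates 1 to 4. The KO libraries were all low, and the groups overlapped only because WT replicate 1 lay below KO replicate 2. These levels rest on few reads, 9 to 29 per KO library and 65 to 95 per WT library. The means were 0.756 ± 0.315 CPM in KO and 2.70 ± 1.23 CPM in WT (SD, n = 4 each), and the log2 fold change was -1.77 (SE 0.46, edgeR adjusted p = 0.353, unadjusted p = 0.00356). In such bulk samples of ganglia and cord, fewer cells of a type and less RNA per cell cannot be told apart.

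Whether Scn10a was called depended on the test and on 1 library. Without WT replicate 1 its log2 fold change was -2.09 (SE 0.25, edgeR adjusted p = 0.00194), where 0.69% of tested genes were called lower. With all 8 libraries DESeq2 gave -1.82 (adjusted p = 0.00438), where 0.404% of the genes it tested were called lower. Every other alternative kept it lower without a call, with adjusted p between 0.102 and 0.845. Without WT replicate 1 the groups did not overlap, as was so for 5.31% of tested genes in that direction.

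Scn9a (ENSMUSG00000075316) was far more abundant than Scn10a and differed less. It stood at 32.1, 41.2, 28.9 and 20.2 CPM in KO replicates 1 to 4, against 25.1, 52.4, 51.1 and 42.6 CPM in WT replicates 1 to 4. Again WT replicate 1 lay among the KO libraries. The other 3 WT libraries lay above all 4 KO libraries, as was so for 5.31% of tested genes. The means were 30.6 ± 8.70 CPM in KO and 42.8 ± 12.6 CPM in WT (SD, n = 4 each), a log2 fold change of -0.47 (SE 0.29, edgeR adjusted p = 0.884). Its 95% interval ran from -1.04 to 0.09, which still holds differences of up to that size in these libraries. Without WT replicate 1 it was -0.66 and still not called (adjusted p = 0.554).

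The sensory-type genes were also compared with each other within each library. Per exon length, the level of Scn10a was 3.78, 4.51, 3.95 and 3.12 per 100 of Scn9a in KO replicates 1 to 4, against 6.16, 10.7, 11.4 and 10.1 in WT replicates 1 to 4. All 4 KO libraries lay below all 4 WT libraries, WT replicate 1 included. The same held with the embryonic subunit Scn3a as the base: Scn10a stood at 2.12, 2.64, 2.00 and 1.19 per 100 of Scn3a in KO, against 3.09, 8.25, 9.14 and 6.83 in WT. These ratios were chosen after the values were seen and carry no test. How often ratios of other genes part the groups in this way was not counted. In CPM, 4.14% of single tested genes did so. Scn9a over Scn3a did overlap between groups, with 0.383 to 0.585 in KO and 0.501 to 0.80 in WT.

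**Figure D2:**
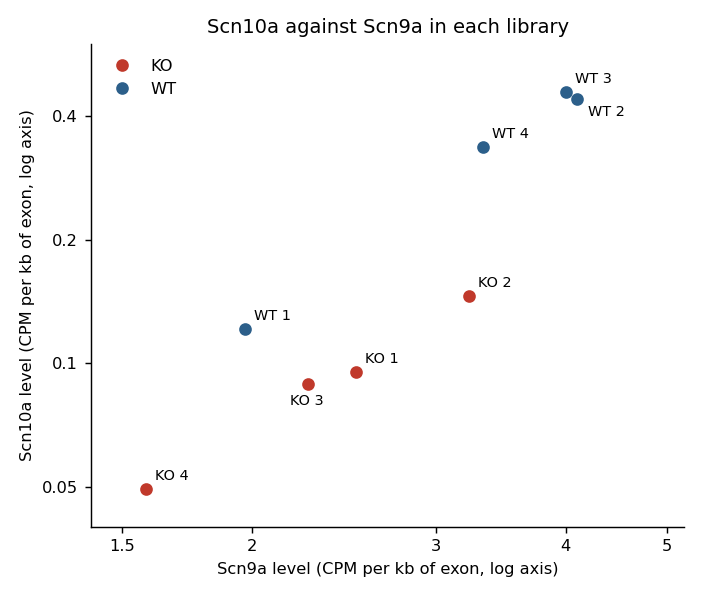
Level of Scn10a (vertical axis) against Scn9a (horizontal axis), both in CPM per kb of annotated exon on log axes, in 4 KO and 4 WT libraries. On both axes WT replicate 1 sits within the KO range (Scn10a at 0.121 CPM per kb, against 0.0494 to 0.146 in KO). Every KO library has a lower ratio of Scn10a to Scn9a (3.12 to 4.51 per 100) than any WT library (6.16 to 11.4 per 100). The ratio was chosen after the values were seen.

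None of the 4 broadly neuronal alpha subunit genes passed the test, and their KO and WT ranges overlapped. Scn3a (ENSMUSG00000057182), the most abundant alpha subunit, stood at 56.0, 68.8, 55.7 and 51.5 CPM in KO replicates 1 to 4, against 48.9, 66.4, 62.3 and 61.2 CPM in WT replicates 1 to 4. Both groups spanned nearly the same range, and the log2 fold change was -0.04 (SE 0.11, edgeR adjusted p = 0.981). Scn8a (ENSMUSG00000023033), the main alpha subunit of mature nodes of Ranvier, averaged 25.7 ± 3.34 CPM in KO and 27.0 ± 1.11 CPM in WT (SD, n = 4 each; log2 fold change -0.07).

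Scn2a (ENSMUSG00000075318), an axonal subunit of young central neurons, averaged 16.1 ± 1.84 CPM in KO and 15.6 ± 2.51 CPM in WT (SD, n = 4 each; log2 fold change 0.05). Scn1a (ENSMUSG00000064329), which in the adult brain is prominent in inhibitory interneurons, averaged 5.05 ± 0.416 CPM in KO and 4.77 ± 0.456 CPM in WT (SD, n = 4 each; log2 fold change 0.09). The 95% intervals of these 4 genes reached at most 0.31 above 0 (Scn1a) and 0.25 below 0 (Scn3a) on the log2 scale, and the sign of each of the 4 turned in at least 1 alternative.

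The beta subunit genes differed in how steady they were. Scn2b (ENSMUSG00000070304) stood at 16.3, 18.5, 18.02 and 17.8 CPM in KO replicates 1 to 4, against 16.7, 16.3, 17.3 and 17.6 CPM in WT replicates 1 to 4, a log2 fold change of 0.06 (SE 0.06, edgeR adjusted p = 0.95). All 8 libraries were close to one another, WT replicate 1 included. Scn3b (ENSMUSG00000049281) stood at 58.9, 71.5, 55.8 and 52.5 CPM in KO replicates 1 to 4, against 40.7, 65.5, 68.7 and 66.9 CPM in WT replicates 1 to 4. Here WT replicate 1 was the lowest of all 8 libraries, and the log2 fold change was -0.01 (SE 0.18, edgeR adjusted p = 0.999) with all libraries and -0.16 (adjusted p = 0.825) without it.

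**Figure D3:**
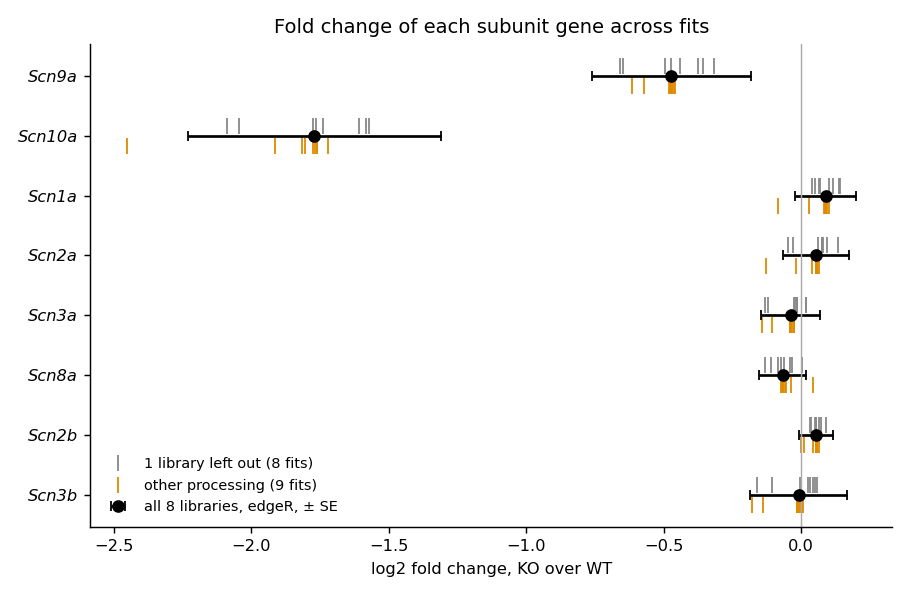
Log2 fold change of KO over WT (horizontal axis) for the 8 subunit genes. Black points are the fit on all 8 libraries with 1 SE, grey ticks the fits with 1 library left out and orange ticks the other processing alternatives. Scn10a lay between -2.45 and -1.57 and Scn9a between -0.66 and -0.32 over all alternatives, while the other 6 genes lay between -0.18 and 0.14.

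As the mean log2 CPM of the sensory-type channels (Scn9a and Scn10a) minus that of the other 6, the contrast was -2.10, -1.84, -2.18 and -2.79 in KO replicates 1 to 4, against -1.90, -0.82, -0.77 and -1.07 in WT replicates 1 to 4. KO libraries were lower on average, and the groups overlapped through KO replicate 2 and WT replicate 1. The means were -2.23 ± 0.40 in KO and -1.14 ± 0.52 in WT (SD, n = 4 each), a difference of -1.09 log2 units, given without a test. With Scn9a alone as the sensory-type channel the difference was -0.48.

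Compared per kb of annotated exon, Scn3b had the highest level, at 10.9 ± 1.52 CPM per kb in KO and 11.1 ± 2.42 in WT (SD, n = 4 each). Scn3a followed at 4.65 ± 0.601 in KO and 4.79 ± 0.605 in WT, and Scn2b at 3.79 ± 0.201 in KO and 3.65 ± 0.12 in WT. Then came Scn9a (2.40 ± 0.681 in KO, 3.35 ± 0.983 in WT), Scn8a (1.63 ± 0.212 in KO, 1.71 ± 0.0703 in WT), Scn2a (1.27 ± 0.144 in KO, 1.23 ± 0.197 in WT), Scn1a (0.453 ± 0.0373 in KO, 0.428 ± 0.0409 in WT) and Scn10a (0.0949 ± 0.0395 in KO, 0.338 ± 0.154 in WT). Of the neighbours in this order, only Scn3b and Scn3a, and Scn2a and Scn1a, had ranges over the 8 libraries that did not overlap. Scn2b exceeded Scn9a in 6 of 8 libraries and Scn1a exceeded Scn10a in 7 of 8, and the other neighbours kept their order in all 8. The length is that of all annotated exons, whether or not a transcript used them here.

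Within the summed level of the 6 alpha subunits, Scn10a took 0.904%, 1.15%, 0.896% and 0.561% in KO replicates 1 to 4, against 1.34%, 3.24%, 3.54% and 2.83% in WT replicates 1 to 4. Every KO share was below every WT share, though the CPM values of Scn10a overlapped between groups. These shares rest on the same few Scn10a reads as the ratios above and carry no test. Scn9a took 22.5 ± 3.21% in KO and 27.8 ± 4.15% in WT, and Scn3a 44.5 ± 1.87% in KO and 40.7 ± 2.19% in WT (SD, n = 4 each). Scn2a took 11.47% to 13.3% in KO and 9.90% to 10.6% in WT, every KO share being above every WT share. The sum itself was 10.5 ± 1.64 CPM per kb in KO and 11.9 ± 2.01 in WT, with the lowest WT library at 9.02, inside the KO range of 8.79 to 12.7. As shares add to 100%, a lower share of one gene raises the others. How often shares of other genes part the groups was not counted, while in CPM 4.14% of single tested genes did so.

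**Figure D4:**
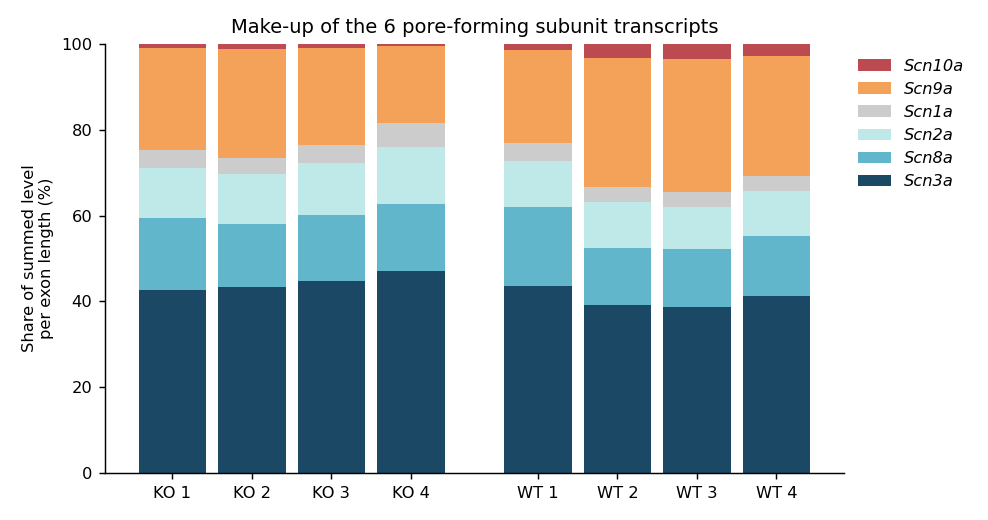
Share of each gene in the summed level of the 6 alpha subunit genes, per exon length (vertical axis, percent), in KO replicates 1 to 4 (left) and WT replicates 1 to 4 (right). Scn3a was the largest part of every bar, with 44.5% on average in KO and 40.7% in WT, and Scn10a the smallest, with 0.877% in KO and 2.74% in WT.

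The members also varied in part together within groups. With the group means removed, Scn9a and Scn10a had a Pearson correlation of 0.99 over the 8 libraries, Scn2a and Scn3a one of 0.98, and Scn10a and Scn3b one of 0.96. The correlations of Scn2b with the other 7 ran from -0.23 to 0.29. WT replicate 1 was low for several of them: relative to the mean of the other WT libraries it held 29.5% for Scn10a, 51.6% for Scn9a, 60.7% for Scn3b, 72.7% for Scn2a and 77.2% for Scn3a, but 85.9% for Scn1a, 96.5% for Scn8a and 98.0% for Scn2b. All points share the make-up of their library, so these correlations are a description and carry no test.

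The genes most like Scn10a across the 8 libraries, among 14283 genes with a mean of at least 1 CPM, were Lrp11 (Pearson correlation 0.99), Arrb1 (0.99), which encodes a beta-arrestin, Dclk3 (0.99), a kinase gene, Coro2a (0.99), a coronin gene, and P2rx3 (0.99), the ATP-gated channel of nociceptors. P2rx3 stood at 15.4, 19.4, 16.4 and 13.5 CPM in KO replicates 1 to 4, against 16.1, 27.6, 30.5 and 25.3 CPM in WT replicates 1 to 4. WT replicate 1 lay among the KO libraries, a pattern that the choice by likeness to Scn10a itself fixes. The log2 fold change was -0.61 (edgeR adjusted p = 0.578) with that library and -0.77 (adjusted p = 0.00679) without it, and neither supports the values of Scn10a. Most like Scn9a were Ppm1e (0.99), Pirt (0.98), a regulator of TRP channels in sensory neurons, Afap1 (0.98), Gabra3 (0.98), a GABA receptor subunit gene, and Tcaf1 (0.98). Pirt stood at 8.45, 12.2, 7.27 and 4.19 CPM in KO replicates 1 to 4, against 4.32, 19.4, 19.8 and 15.2 CPM in WT replicates 1 to 4. WT replicate 1 was thus near the lowest of the 8 libraries for Pirt, and its log2 fold change of -0.85 was not called (adjusted p = 0.897).

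Values of a few other subunit genes are given for comparison. Scn7a, which encodes the sodium-sensing channel Nax of glia and sensory ganglia, stood at 4.19, 5.52, 2.14 and 1.88 CPM in KO replicates 1 to 4, against 2.40, 7.67, 8.54 and 6.48 CPM in WT replicates 1 to 4. WT replicate 1 lay among the KO libraries, and the 3 other WT libraries lay above them all, as was so for 5.31% of tested genes. The log2 fold change of Scn7a was -0.84 (SE 0.47, edgeR adjusted p = 0.868). Scn11a, a further nociceptor channel, held 2 to 9 reads per KO library and 4 to 17 per WT library and was too low to test. Scaled to library size it averaged 0.227 CPM in KO and 0.264 CPM in WT. Scn4a, the skeletal muscle channel, averaged 1.19 ± 0.38 CPM in KO and 0.97 ± 0.355 CPM in WT (SD, n = 4 each) and was not called. Beside it, 10 skeletal muscle genes summed to 699.4 to 1034 CPM in KO and to 633.3 to 755.8 CPM in WT, and the part of that tissue in the Scn4a level was not tested. The beta subunit gene Scn4b averaged 0.854 ± 0.103 CPM in KO and 0.736 ± 0.269 CPM in WT (SD, n = 4 each), without a call.

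Proteins that bind, anchor or regulate sodium channels formed a list of which 17 tested genes are reported here. None of these passed in either direction, and their median log2 fold change was -0.04. The smallest p belonged to Fgf13, an intracellular FGF that binds the channel's C-terminus, at 44.7, 50.0, 40.3 and 39.9 CPM in KO replicates 1 to 4, against 43.7, 63.8, 68.0 and 61.8 CPM in WT replicates 1 to 4. Its log2 fold change was -0.43 (SE 0.13, edgeR adjusted p = 0.56), and without WT replicate 1 it was called (-0.55, adjusted p = 0.00445). With all 8 libraries Fgf13 was not called by DESeq2 (adjusted p = 0.0896). It was called by limma-voom with quality weights, which can let a library count for less (-0.53, adjusted p = 0.0306). Cntn1, a contactin that joins channel complexes at the axon surface, had a log2 fold change of -0.35 with all libraries (adjusted p = 0.806) and was called without WT replicate 1 (-0.50, adjusted p = 0.0209). Ank2, an ankyrin gene, had a log2 fold change of -0.11 and was called neither with nor without that library.

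Beside the sodium channels, 3 of 10 general sensory neuron genes were called lower, where 0.243% of all tested genes were. None of the 10 was called higher, and their median log2 fold change was -0.28. Tlx2, a homeobox gene of sensory neurons, averaged 9.22 ± 0.954 CPM in KO and 15.5 ± 1.66 CPM in WT, and Pou4f1, which encodes Brn3a, 65.2 ± 4.69 CPM in KO and 93.9 ± 9.36 CPM in WT (SD, n = 4 each; edgeR adjusted p = 0.00987 and 0.0188). The third was Eya2, a transcriptional cofactor of placodes and sensory ganglia, which averaged 33.2 CPM in KO and 43.5 CPM in WT (adjusted p = 0.0303; named after its value was seen). None of these 3 calls held in every alternative. With the replicate number as a block, Tlx2, Pou4f1 and Eya2 were not called (edgeR adjusted p = 0.08, 0.105 and 0.125). Nor were they when a score of muscle and mesenchyme genes entered the fit (edgeR adjusted p = 0.294, 0.571 and 0.707). That fit called 0 genes higher and 1 lower over all genes, so a missing call in it decides little. In it the log2 fold changes were -0.84 for Tlx2 and -0.53 for Pou4f1, beside -0.74 and -0.52 in the main fit. With 1 library left out, Tlx2 was called in 5 of 8 fits and lost the call without KO replicate 3, KO replicate 4 or WT replicate 4. Pou4f1 was called in 1 of 8 such fits, the one without WT replicate 1, and Eya2 in 2 of 8, those without KO replicate 1 or WT replicate 1. The highest edgeR adjusted p over these fits was 0.0552 for Tlx2, 0.0871 for Pou4f1 and 0.141 for Eya2. The log2 fold change of Pou4f1 ran from -0.59 to -0.47 over them.

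Of 15 pan-neuronal genes none passed, and 14 had log2 fold changes below 0, with a median of -0.14. Over all tested genes 51.6% were below 0. Nefm, a neurofilament gene, had a log2 fold change of -0.29 with all libraries (edgeR adjusted p = 0.0916). Without WT replicate 1 it was called (-0.33, edgeR adjusted p = 0.00191). Nefm was also called with no filter on low counts (adjusted p = 0.0354), by DESeq2 (adjusted p = 0.000792) and by limma-voom with quality weights (adjusted p = 0.00109). Elavl4, an RNA-binding protein of neurons, had one of -0.23 (edgeR adjusted p = 0.345) and was called by limma-voom with quality weights (adjusted p = 0.0333). None of 9 mechanoreceptor and proprioceptor genes passed; for Runx3, a proprioceptor factor, the log2 fold change of KO over WT was -1.13 (adjusted p = 0.501), and for Heg1 it was -0.14 (adjusted p = 0.708).

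The tested nociceptor lineage genes reported here had log2 fold changes from -0.61, that of P2rx3, to 0.23, and several overlapped widely between groups. Runx1, a transcription factor of nociceptor lineages, lay between 7.47 and 10.96 CPM in KO and between 8.73 and 10.1 CPM in WT. The neuropeptide gene Calca lay between 1.00 and 1.32 CPM in KO and between 1.06 and 1.41 CPM in WT, and Tac1 between 0.712 and 1.56 CPM in KO and between 0.43 and 1.27 CPM in WT. Mrgprd held 0 reads in all KO libraries and 0 or 1 in WT, and Trpm8 0 or 1 in KO and 0 to 2 in WT. Trpv1 held 1 to 10 reads in KO and 8 to 14 in WT, or 0.0437 to 0.40 CPM in KO and 0.163 to 0.548 CPM in WT.

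Muscle and mesenchyme genes had fold changes above 0, where most sensory and pan-neuronal genes had them below 0, and none passed the test. All 10 muscle genes had log2 fold changes above 0, with a median of 0.31, and 7 had an unadjusted p under 0.05. Over all tested genes 3.03% were higher at that level, and 51.6% had log2 fold changes below 0. Myod1, a myogenic factor, lay between 47.3 and 64.4 CPM in KO and between 36.4 and 45.6 CPM in WT. All 9 mesenchyme genes were above 0, with a median of 0.15, and 1 had an unadjusted p under 0.05. They summed to 2753 to 3074 CPM in KO, to 2099.98 CPM in WT replicate 1 and to 2628 to 2902 CPM in WT replicates 2 to 4. The part of this tissue in the values of the neuronal genes and sodium channels was not tested. With the score of these genes as a covariate no sodium channel member was called, as in the main fit. The covariate fit called only 0 genes higher and 1 lower over all genes, so a missing call there cannot decide this. In it the log2 fold change of Scn10a was -2.45 (SE 0.66, edgeR adjusted p = 0.845). None of 8 neural tube progenitor (median -0.10), 2 heart muscle (0.22), 5 endothelial (0.02) and 5 erythroid (-0.05) genes passed.

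In other neural lists, 1 of 8 motor neuron genes passed as higher, Lhx3 (log2 fold change 0.56, edgeR adjusted p = 0.0169), and 1 of 7 neural crest and glial genes as lower, Foxd3 (-0.57, adjusted p = 0.0303), both named after their values were seen. Over all tested genes 0.056% were called higher and 0.243% lower. Lhx3 was called with the replicate block (adjusted p = 0.0326) and in 5 of 8 fits with 1 library left out, but not with the muscle and mesenchyme score (adjusted p = 0.99991). Foxd3 was called neither with the block (adjusted p = 0.099) nor with that score (adjusted p = 0.505), and in 1 of 8 fits with 1 library left out, the one without WT replicate 1. With that score 0 genes were called higher and 1 lower over all genes, so the missing calls there decide little.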

How the data were processed

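Microdissected dorsal root ganglia with spinal cord gave total RNA for Illumina sequencing, per the labels' protocols. Each library has 1 deposited table of raw read counts by Ensembl gene. Per the submitters' processing notes the build was mm10, with STAR (2.3.0e) and featureCounts (1.4.6-p1) among the tools; for their settings and use of strand nothing was given in these sources. The 5 summary rows of each table held 0 counts and were left out. Symbols and exon lengths came from GENCODE M21 (GRCm38), which matched 36602 of 38355 identifiers.

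KO over WT was fitted in edgeR 4.0.16 (R 4.3.3) after filterByExpr and TMM scaling (factors 0.991 to 1.01), by a robust quasi-likelihood fit on group. P-values were adjusted by Benjamini-Hochberg over all 16068 tested genes, with 0.05 as the threshold. SE is the size of the log2 fold change over the square root of F, and 95% intervals use the normal quantile. CPM uses TMM-adjusted library sizes, and log2 CPM a prior count of 2. Per-length levels divide CPM by the summed annotated exon length. The fit was tested on simulated data. Libraries of a group differed beyond sampling noise (chi-square per degree of freedom of 4.63 or more in every pair), so none was taken for a repeat deposit of another. Repeat preparations from one pool would differ in this way too, and the 8 stand as replicates by their labels alone.

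Alternatives were RLE factors, library totals, no filter or at least 1 CPM in 4 libraries, DESeq2 1.42.0 and limma-voom (limma 3.58.1). The limma-voom fit used quality weights throughout, which can let a library count for less. Further alternatives were a replicate block, a muscle and mesenchyme score as covariate, a thinned WT replicate 1, and leaving out each library. The members, lists and tests were chosen with earlier results of these data known. By rule the text names Prdm12, the members, other subunit genes, genes whose exons overlap a member's, the 4 partner genes and 2 genes of each of 4 neuronal lists with the smallest p, and the 5 genes most like Scn10a and Scn9a. Tissue markers and ratios were chosen after values were seen. Some genes that this rule or the lists hold are not reported here; counts over a list leave them out and cover the reported genes only. Figures were drawn with matplotlib 3.10.9.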

Additional observations from a re-analysis of the deposited data

Results flagged for a closer look

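A library far from the other 3 of its group was found for Scn3b in WT replicate 1, where it held 40.7 CPM while WT replicates 2 to 4 held 65.5 to 68.7 CPM. The per-length ratio of Scn3b over Scn2b in the same library was 2.07, against 3.25 to 3.42 in the other WT libraries. For Scn2a, KO replicate 2 was high, with 18.9 CPM where KO replicates 1, 3 and 4 held 14.9 to 15.4 CPM. The screen covered 36 groups of 4 libraries, of which chance flags about 1 in 20.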

How the results depend on the processing

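Over 17 alternatives Scn9a, Scn10a and Scn2b kept their direction. Scn10a was the member called with DESeq2 and without WT replicate 1 (1 of 8 in each), and no member was called in the other 15. The count of genes called in KO, 9 higher and 39 lower, was 19 and 81 with DESeq2, 23 and 102 with limma-voom, 0 and 1 with the muscle and mesenchyme score, and ran from 3 to 21 higher and from 12 to 112 lower when 1 library was left out, the highest without WT replicate 1; the cause was not tested. The difference between sensory-type and broadly neuronal channels was -0.48 without Scn10a, which that choice itself removes, and -1.34 to -0.90 without 1 library.

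The replicate numbers are not said to pair libraries. Same-numbered libraries deviated from their group means with correlations of -0.11, 0.28, -0.19 and -0.01, and no KO library correlated best with its own number. With the replicate block 2 genes were called higher and 14 lower, and Scn10a had an adjusted p of 0.241.

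Among named genes signs turned for 6, all with log2 fold changes of 0.15 or less in size. With the muscle and mesenchyme score these were Scn1a (-0.082), Scn2a (-0.13) and Scn8a (0.043), with limma-voom Scn2a (-0.018), and for Scn3b library totals (0.0025) and the replicate block (0.0074). Without 1 library Scn1a ran from 0.038 to 0.14, Scn2a from -0.048 to 0.14, Scn3a from -0.13 to 0.018, Scn8a from -0.13 to 0.0054, Scn3b from -0.16 to 0.059 and Scn4b from -0.029 to 0.43. At this depth Scn10a and Scn11a rest on too few reads for small differences to be detectable.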
